A study of Mus musculus with 2 samples.

Results

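Interferon response genes were followed in mouse tendon cells under mechanical shear. The 9 genes, chosen by name, were Ifitm1, Ifitm2, Ifitm3, Irf1, Irf7, Irf9, Stat2, Isg15 and B2m, and a spot was used where the platform annotation gave it exactly 1 gene symbol and that symbol was a member. On each array 8 of the 9 genes were measured, over 24 spots in all, out of 10346 named genes on the 6 h array and 10731 on the 12 h array. Isg15 had no annotated spot, so it has no value here and enters only the promoter search.

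By its title the study looked at what mechanical shear does to flexor tendon cells. Each of 2 spotted arrays compared, in separate colours, RNA of sheared tenocytes (Cy5) with RNA of control tenocytes of the same time point (Cy3), after 6 h on one array and 12 h on the other. The labels give the 6 h cells, sheared and control, as pooled, and give a shear setting of 50 RPM for the 12 h cells. The 2 arrays share no control RNA. No strain, age, passage or culture number is given in the sources used here, and the tendon genes Scx and Tnmd, which would mark tenocytes, are not among the named spots.

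Every value below is a log2 ratio of sheared over control, set to 0 at the median of all spots of its array. It is a difference between the 2 channels and says nothing of how abundant a transcript is. No source used here states the base of the logarithm, taken as 2, or the direction, which is likely this one because the labels put Cy5 on sheared cells and two-colour ratios are usually stored as red over green. If it ran the other way, each higher value would be a lower one. With 1 array per time point no test was possible. The words higher and lower refer to these hybridisations. The SD given is that between the spots of a gene on the same array, which covers clones and spots and not cultures. Pooled over all genes with several spots, that SD was 0.738 at 6 h and 0.855 at 12 h. Between paired spots annotated with the same cDNA it was larger, 0.93 at 6 h (495 pairs) and 1.04 at 12 h (547 pairs). A gene is counted as higher or lower from 1.5-fold, which is 0.585 on the log2 scale.

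Type I interferons bind the receptor chains Ifnar1 and Ifnar2 and act through Janus kinases on Stat2, which joins Irf9 in the complex ISGF3. ISGF3 binds the interferon-stimulated response element (ISRE) of its target genes. Interferon gamma acts on another element, the gamma-activated site (GAS), of which Irf1 is the classic target. Fibroblasts express these receptors and carry a low resting level of many of the target genes, among them the Ifitm genes and the genes of MHC class I.

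These elements are shown because they are the DNA through which interferon signals reach such genes, although Ifitm1, Irf7 and Irf9 had neither core in the windows searched. All 9 genes had at least 1 promoter window, 11 windows in all, in RefSeq for GRCm38.p6, from 250 bases before the transcript start to 50 after it. The ISRE core was searched as GAAANNGAAA and the GAS core as TTCNNNGAA, on both strands. An ISRE core was present for 5 of the 9 genes (B2m, Ifitm2, Ifitm3, Stat2 and Isg15, the last with 3 overlapping matches), against 3.99% of all 27025 genes with a window. A GAS core was present for 2, Irf1 and Ifitm3, against 9.55% of genes. Of 116 other genes of the pathway with a window, 31.0% had an ISRE core and 26.7% a GAS core. Matching bases are in capitals, read 5′ to 3′ on the strand of the gene.
B2m, ISRE core from -139, chr2:122147538-122147567, plus strand: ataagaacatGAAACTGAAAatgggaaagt
Ifitm2, ISRE core from -46, chr7:140955988-140956017, minus strand: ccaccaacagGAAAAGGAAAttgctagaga
Ifitm3, 2 ISRE cores from 3 after the start, chr7:141010714-141010743, minus strand: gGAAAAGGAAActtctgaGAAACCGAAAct
Stat2, ISRE core on the opposite strand from -222, chr10:128270266-128270295, plus strand: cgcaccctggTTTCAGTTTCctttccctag
Irf1, GAS core from -90, chr11:53769914-53769943, plus strand: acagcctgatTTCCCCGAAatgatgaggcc
The GAS core of Ifitm3 lies from 14 to 22 after the start and overlaps its second ISRE core. A match describes the letters of a window and shows no binding.

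Across the members, the Ifitm genes and B2m stood above 0 at every spot on both arrays, except that without centring 1 Ifitm3 spot lay just below 0 at 6 h, while the transcription factors were mixed. At 6 h the median of the 8 measured genes was 0.73 (1.66-fold), with 5 genes past 1.5-fold upward and 0 downward. At 12 h the median was 1.48 (2.79-fold), with 6 higher and none lower. Over all genes, 18.2% were higher and 31.3% lower at 6 h, and 24.4% were higher and 33.1% lower at 12 h, with medians of -0.11 and -0.14. Without centring, 8.35% of all genes were higher and 43.7% lower at 6 h, and 13.4% and 51.5% at 12 h. The members then had medians of 0.40 and 1.0, with 2 higher at 6 h and 5 higher and 1 lower at 12 h.

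**Figure D1:**
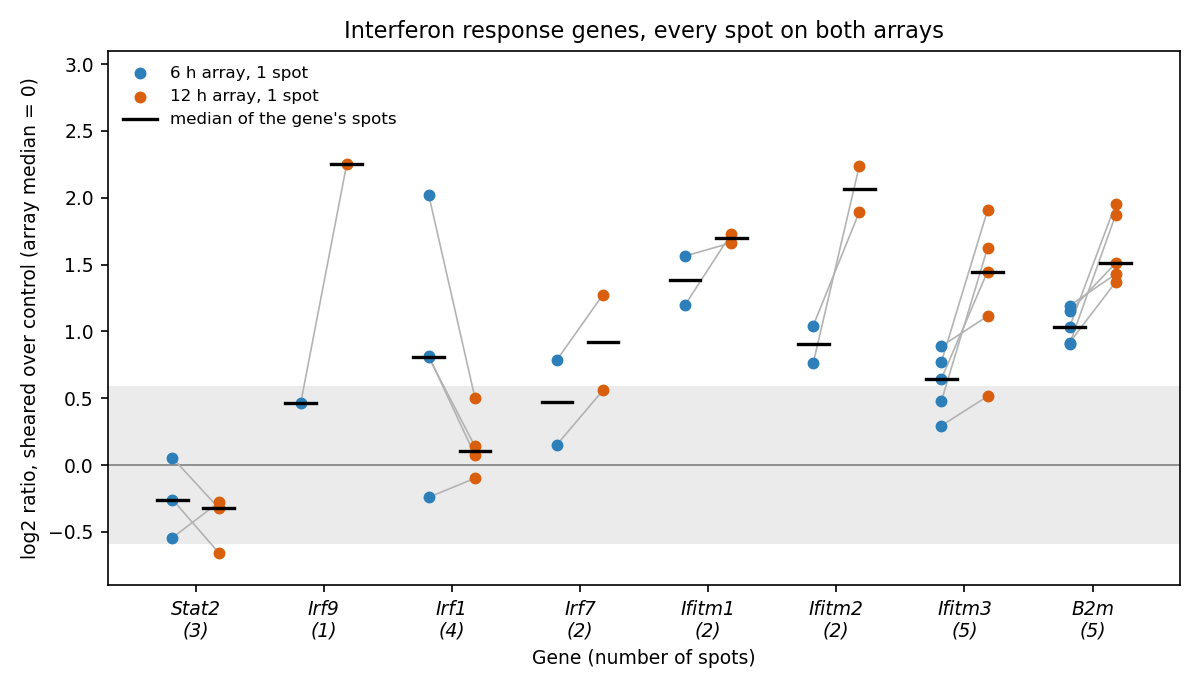
Log2 ratio of sheared over control (y axis) of every spot of the 8 measured genes (x axis, number of spots in parentheses), at 6 h in blue and 12 h in orange; grey lines join the same spot, black bars are gene medians and the grey band is less than 1.5-fold. All 9 spots of Ifitm1, Ifitm2 and Ifitm3 and all 5 of B2m lie above 0 on both arrays, the 4 spots of Irf1 lie lower at 12 h in 3 cases, and those of Stat2 lie near or below 0.

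Ifitm1, one of the interferon-induced transmembrane proteins that block the entry of viruses through cell membranes, read highest of the members at 6 h. Its 2 spots stood at 1.20 and 1.56 at 6 h and at 1.73 and 1.66 at 12 h. Both spots were thus high on both arrays, and the gene medians were 1.38 (2.60-fold, probe SD 0.26) and 1.70 (3.24-fold, probe SD 0.05). On the 6 h array 217 genes read higher than Ifitm1, and on the 12 h array 499 did.

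Ifitm2, a paralog that restricts viruses from endosomes, gave 0.76 and 1.04 at 6 h and 2.24 and 1.90 at 12 h. The spots of the 2 arrays did not overlap, with medians of 0.90 (1.87-fold, probe SD 0.20) and 2.07 (4.19-fold, probe SD 0.24). Without centring the 6 h median was 0.58, just under 1.5-fold. Ifitm3, the best known of these antiviral proteins, had 5 spots. They stood at 0.30, 0.48, 0.65, 0.77 and 0.89 at 6 h and, in the same order, at 0.51, 1.62, 1.45, 1.91 and 1.11 at 12 h. Every spot was higher at 12 h than at 6 h, by 0.22 to 1.14, and the medians were 0.65 (1.56-fold, probe SD 0.24) and 1.45 (2.73-fold, probe SD 0.53). Without centring the 6 h median was 0.32 and under 1.5-fold. The Ifitm transcripts are closely related in sequence, so a spotted cDNA can bind more than its own transcript, and the 3 genes are not fully separate measurements. Ifitm5, a relative known from bone cells, stood at -0.95 at 6 h and -0.30 at 12 h on its single spot.

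B2m, the light chain shared by all MHC class I molecules, had the tightest spots of the members at 6 h among those with more than 1 spot. The 5 spots stood at 0.90, 0.92, 1.03, 1.15 and 1.19 at 6 h and, in the same order, at 1.87, 1.37, 1.95, 1.51 and 1.43 at 12 h. The lowest spot at 12 h was above the highest at 6 h. The medians were 1.03 (2.05-fold, probe SD 0.13) and 1.51 (2.85-fold, probe SD 0.27). The spots at 1.03 and 1.15 are annotated with the same cDNA, and at 12 h they read 1.95 and 1.51.

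The list of other genes of MHC class I presentation had medians above those of all genes, -0.11 and -0.14, though single genes lay below 0. Of 14 listed genes 6 were measured at 6 h, with a median of 0.53, 3 higher and none lower. At 12 h 7 were measured, with a median of 0.93, 4 higher and 1 lower. That is 50.0% and 57.1% higher, beside 18.2% and 24.4% of all genes. It is 0.0% and 14.3% lower, beside 31.3% and 33.1%. The heavy chain genes H2-K1 and H2-D1, whose products pair with B2m, stood at 0.74 and 0.70 at 6 h and at 1.10 and 1.44 at 12 h, each on 1 spot. Class I heavy chain genes are nearly identical to their neighbours in the family, so these values can include other members of it. Tapbp, which loads peptides, stood at -0.33 and -0.11, and Tap2, a subunit of the peptide transporter, at -0.94 at 12 h only. The list also holds chaperones of the endoplasmic reticulum that serve other proteins too. Of these, Calr stood at 0.625 (probe SD 0.58) and 0.927 (probe SD 1.315), Pdia3 at 0.44 and 0.94 and Canx at -0.14 and -0.46. Calr was among the higher genes on both arrays and Pdia3 at 12 h, and the 12 h median is the value of Calr.

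The factors of the ISGF3 complex went different ways. Stat2 had 3 spots, at -0.54, -0.26 and 0.05 at 6 h and, in the same order, at -0.28, -0.66 and -0.32 at 12 h. These lay around 0 at 6 h and below it at 12 h, with medians of -0.26 (probe SD 0.30) and -0.32 (probe SD 0.21), and neither median reached 1.5-fold. Without centring the 12 h median was -0.80, which is past 1.5-fold. Irf9, the DNA-binding subunit, stood at 0.46 (1.38-fold) at 6 h and 2.25 (4.77-fold) at 12 h, where 143 genes read higher. Both values of Irf9 rest on 1 spot and have no check within the array.

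Irf1, the early interferon regulatory factor, passed 1.5-fold at 6 h and not at 12 h. Its 4 spots stood at -0.24, 0.81, 0.82 and 2.02 at 6 h, and in the same order at -0.10, 0.14, 0.07 and 0.50 at 12 h. The 6 h spots were widely spread, with a median of 0.81 (1.75-fold, probe SD 0.92) that was 0.49 and under 1.5-fold without centring. At 12 h they were close to 0, with a median of 0.11 (probe SD 0.25) that turned to -0.37 without centring. The spots at -0.24 and 0.81 are annotated with the same cDNA, so the spread at 6 h is not one between parts of the transcript alone.

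Irf7, the factor that amplifies type I interferon production, had spots at 0.15 and 0.79 at 6 h and at 0.56 and 1.28 at 12 h. Both spots were higher at 12 h, and the gene medians were 0.47 (1.39-fold, probe SD 0.45) and 0.92 (1.89-fold, probe SD 0.51), so that only the 12 h value passed 1.5-fold. Without centring it was 0.44 and did not.

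Between the arrays the members moved by different amounts. Taken on the same spots, the difference of 12 h minus 6 h was 1.79 for Irf9, 1.16 for Ifitm2 (probe SD 0.44), 0.80 for Ifitm3 (probe SD 0.46), 0.45 for B2m (probe SD 0.34), 0.45 for Irf7 (probe SD 0.06) and 0.32 for Ifitm1 (probe SD 0.31). It was -0.38 for Stat2 (probe SD 0.37) and -0.70 for Irf1 (probe SD 0.68). The differences of Ifitm1, Stat2 and Irf1 were thus about as large as the spread of their own spots, and that of Ifitm1 turned to -0.04 when both arrays were scaled to one spread. Pooled over 5340 genes with several spots, the spot SD of this difference was 0.74. The differences of B2m and Irf7 lay under that SD as well, and that of Ifitm3 was close to it. The small SD of Irf7 rests on 2 spots, and Irf9, on 1 spot, has none. The median was 0.45, and 3 of the 8 genes passed 1.5-fold upward and 1 downward. Over all genes 25.2% were higher and 16.5% lower, with a median of 0.13.

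Upstream of the members, all measured receptor chains read above 0 (without centring, all but Il10rb on both arrays and Ifngr2 at 12 h), and both measured kinases passed 1.5-fold downward at 12 h but not at 6 h. The interferon genes themselves gave few values: Ifnb1, interferon beta, stood at -0.58 at 6 h and -0.51 at 12 h, Ifng, interferon gamma, at -0.29 and -0.60, and Ifna11 at -2.42 at 12 h only, each on 1 spot. Of the 5 measured receptor chains 2 were at least 1.5-fold higher at 6 h and 3 at 12 h, beside 18.2% and 24.4% of all genes. At 12 h 33.1% of all genes were at least 1.5-fold lower. Without centring the median of all 7 receptor and kinase genes went from 0.43 to 0.10 at 6 h and from 0.43 to -0.05 at 12 h. The type I receptor chain Ifnar1 stood at 0.91 and 2.25 on 1 spot, and Ifnar2 at 0.73 (probe SD 0.35) and 0.61 (probe SD 0.64) on 3 spots. The interferon gamma receptor chains stood at 0.43 and 0.73 for Ifngr1 and at 0.46 and 0.37 for Ifngr2, each on 1 spot, and Il10rb, shared with the type III receptor, at 0.31 and 0.43. The kinase Jak1 stood at -0.27 (probe SD 0.18) and -1.40 (probe SD 0.42), and Jak2 at -0.42 (probe SD 0.90) and -1.08 (probe SD 2.37). The spots of Jak2 lay on both sides of 0, from -1.21 to 0.72 at 6 h and from -2.83 to 2.66 at 12 h.

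The other STAT and IRF factors had medians of -0.06 over 7 genes at 6 h and -0.46 over 8 genes at 12 h. At 6 h 1 was higher and 2 lower, beside 18.2% and 31.3% of all genes. At 12 h 1 was higher and 4 lower, beside 24.4% and 33.1%. Irf3, which induces interferon beta once phosphorylated, stood at 0.23 (probe SD 0.03) and 0.77 (probe SD 0.27) on 3 spots. Irf8, a factor of myeloid cells, stood at 3.08 at 6 h and -0.31 at 12 h, and Irf2, a competitor of Irf1, at -2.50 and -0.81, each on 1 spot. Irf4, a lymphocyte factor, stood at -0.32 and -0.60 and Stat6, which serves interleukin 4, at -0.06 and -0.03, also on 1 spot each. Stat3, activated by cytokines of the interleukin 6 family, stood at 0.09 (probe SD 0.83) and -0.31 (probe SD 1.42). Stat5b, which serves growth hormone and cytokine receptors, stood at -1.503 (probe SD 0.78) and -2.07 (probe SD 0.21). Stat4 stood at -3.51 at 12 h only.

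As a list, the interferon-induced antiviral genes did not share the high values of the Ifitm genes. Of 56 listed genes 30 were measured on each array, with medians of -0.27 at 6 h and -0.30 at 12 h. At 6 h 2 were higher and 8 lower, and at 12 h 4 were higher and 12 lower. That is 6.67% and 13.3% higher, against 18.2% and 24.4% of all genes. It is 26.7% and 40.0% lower, against 31.3% and 33.1%. The 7 measured genes of the Oas and Ifit families, which sense or bind viral RNA, had medians of -0.21 and -0.33, and none of them was at least 1.5-fold higher on either array. Ifit1 stood at -0.21 and -0.85, and Oas1a at 0.04 and -0.30, each on 1 spot. Both genes, and the grouping of these families, were chosen after the values were seen. Other genes of the list read higher at 12 h: Psmb10 at 1.57 and Cmpk2 at 1.15 on 1 spot each, and Pml at 1.08 (probe SD 2.06). On each array 16 of the 30 measured genes rest on 1 spot. Mx1, Mx2, Rsad2, Oas2 and Ifi44 are not among the named spots. At the ends of the list, Isg20, a viral RNA exonuclease, stood at 0.95 at 6 h with a probe SD of 1.90 and at 0.21 at 12 h. Lgals3bp, a secreted galectin ligand, stood at 0.09 (probe SD 0.56) and 1.59 (probe SD 0.76). The GTPase gene Irgm2 stood at -0.80 at 6 h on 1 spot and -2.96 at 12 h with a probe SD of 2.74, and Tgtp1, another of these GTPases, at -2.35 at 6 h only.

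**Figure D2:**
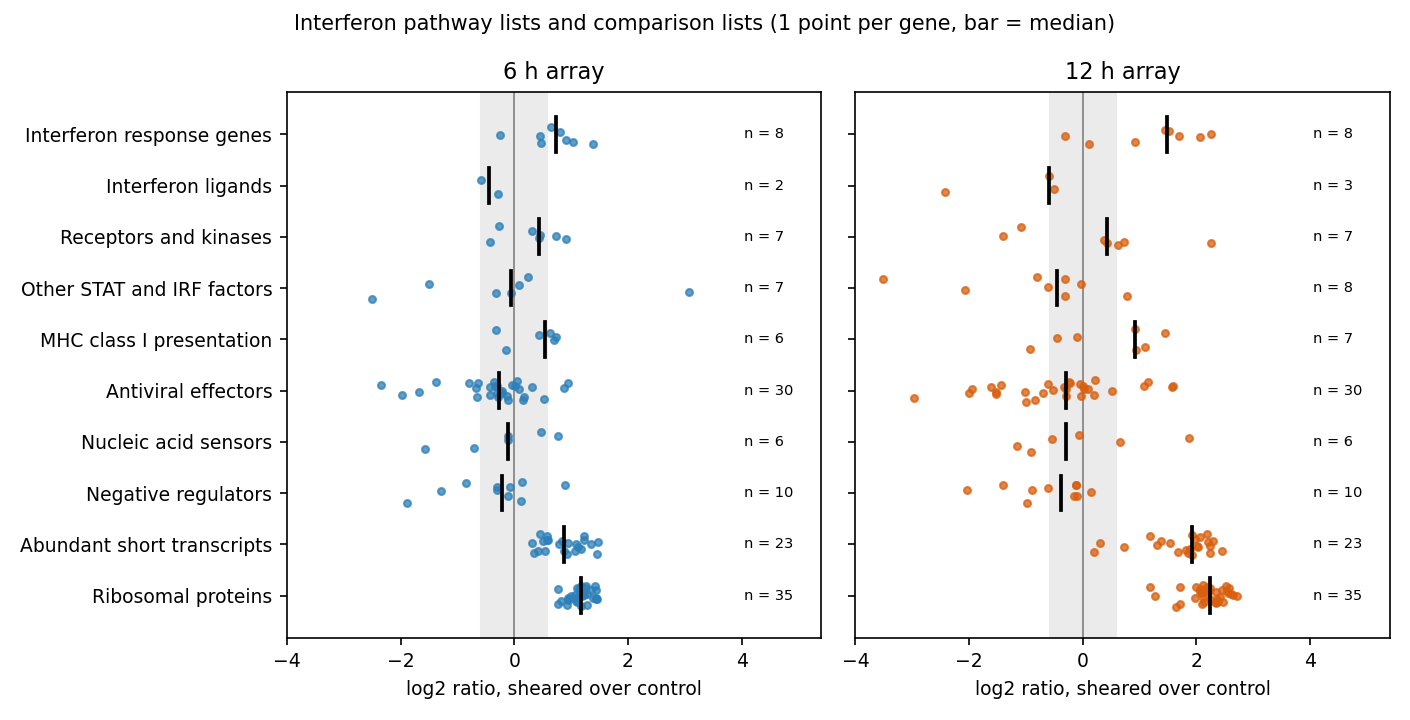
Log2 ratio of sheared over control (x axis) of each gene of the members, of 7 lists of the interferon pathway and of 2 comparison lists, at 6 h on the left and 12 h on the right; each point is a gene, the bar is the median, n is the number of genes measured and the grey band is less than 1.5-fold. The members' medians of 0.73 and 1.48 lie to the right of those of the 30 antiviral effectors, -0.27 and -0.30, and to the left of those of the ribosomal proteins, 1.17 and 2.23.

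Sensors and inhibitors of the pathway were also centred near or below 0, as were all genes, with medians of -0.11 and -0.14. The 6 measured nucleic acid sensors and adaptors had medians of -0.11 and -0.30, with Dhx58, a regulator of RNA sensing, at 0.76 and 1.87 and Ddx58, the RNA sensor RIG-I, at -1.58 and -1.16, each on 1 spot. Of 10 negative regulators 1 was higher and 3 lower at 6 h, and none was higher and 5 lower at 12 h. Their medians were -0.21 and -0.38. Beside them, 18.2% of all genes were higher and 31.3% lower at 6 h, and 24.4% and 33.1% at 12 h. Socs1, an inhibitor of Janus kinases that interferon induces, stood at 0.89 (probe SD 0.86) at 6 h and 0.14 (probe SD 0.44) at 12 h. The phosphatase Ptpn6 stood at -1.88 (probe SD 0.33) and -1.40 (probe SD 1.19), and Pias1, a SUMO ligase, at -0.85 (probe SD 1.02) and -2.04 (probe SD 2.58). Herc6, a ligase for Isg15, stood at -0.64 at 12 h only. Over all 69 pathway genes measured at 6 h outside the members, 10 were higher and 16 lower, and over the 73 at 12 h, 14 were higher and 29 lower. The shares that were higher were 14.5% and 19.2%, beside 18.2% and 24.4% of all genes. Those that were lower were 23.2% and 39.7%, beside 31.3% and 33.1%.

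Abundant short transcripts outside the interferon pathway read high on the same arrays. The 35 measured ribosomal protein genes had medians of 1.17 at 6 h and 2.23 at 12 h, and all were at least 1.5-fold higher on both arrays. Of all genes, 18.2% were higher at 6 h and 24.4% at 12 h. In a list of other abundant short transcripts, drawn up with earlier results known, 15 of 23 genes were higher at 6 h and 21 at 12 h. Their medians were 0.87 (range 0.31 to 1.47) and 1.92 (range 0.19 to 2.44). The values of Ifitm1, Ifitm2, Ifitm3 and B2m, 0.65 to 1.38 at 6 h and 1.45 to 2.07 at 12 h, fall within these ranges. Neither transcript length nor abundance was measured, and their part in the members' values was not tested.

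**Figure D3:**
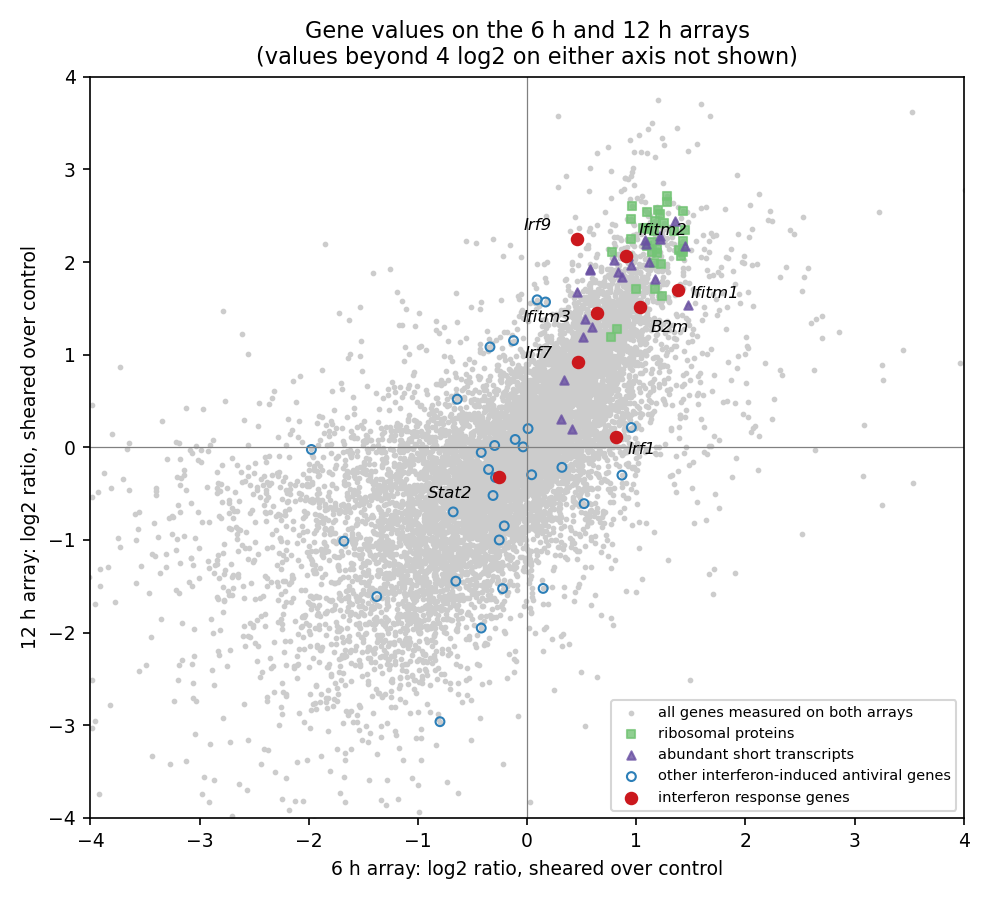
Gene values on the 6 h array (x axis) against the 12 h array (y axis), both as log2 ratios of sheared over control; grey points are all genes measured on both arrays within 4 log2 of 0, red points the members, open blue circles the antiviral genes, green squares ribosomal proteins and purple triangles other abundant short transcripts. Ifitm1, Ifitm2, Ifitm3 and B2m lie among the squares and triangles, Irf9 lies at 0.46 on the x axis and 2.25 on the y axis, and Irf1 and Stat2 lie apart from both lists.

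The genes nearest to Ifitm1 and Ifitm2 over both arrays included ribosomal protein genes. For Ifitm1 these were Vegfa, an angiogenic factor, at 1.41 and 1.69, the ribosomal protein gene Rps4l at 1.41 and 1.73 and Ufm1, a ubiquitin-like modifier, at 1.43 and 1.72, at Euclidean distances of 0.028 to 0.051. For Ifitm2 they were Gpx4, a peroxidase of lipid peroxides, and the ribosomal protein genes Rpsa and Rpl36, at distances of 0.019 to 0.023. Likeness over 2 values is weak. Of 5344 genes compared, 94 lay within 0.25 of Ifitm2 and 28 within 0.25 of Ifitm1.

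Markers of other cells that express interferon genes were mixed. Of 22 leukocyte markers 14 were measured at 6 h, 3 higher and 5 lower, ranging from -5.42 to 0.80. At 12 h 17 were measured, 5 higher and 4 lower, ranging from -2.31 to 1.70. That is 21.4% higher and 35.7% lower at 6 h, beside 18.2% and 31.3% of all genes. At 12 h it is 29.4% and 23.5%, beside 24.4% and 33.1%. Between the arrays 8 of 14 were at least 1.5-fold higher at 12 h and none lower. Their median difference was 0.65, beside the 0.45 of the members and 0.13 of all genes. Of all genes, 25.2% were higher and 16.5% lower in this difference. Of 12 endothelial markers 8 were measured, with medians of -0.33 and -0.24, and Pecam1, a junction protein of endothelium, stood at -2.03 (probe SD 1.01) and -0.56 (probe SD 1.70) on 2 spots. Ptprc, which defines leukocytes, is not among the named spots. The part of such cells in the members' values was not tested, and in whole cultures fewer cells of a type and less RNA per cell cannot be told apart.

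Position was shared by some members. Ifitm2, Ifitm1 and Ifitm3 are consecutive among the named protein-coding genes of chromosome 7, and Irf7 lies further along the same stretch. From Scgb1c1 before them to Slc25a22 after Irf7, 32 genes were not members. At 6 h 21 of these were measured, with a median of -0.11, and 2 passed 1.5-fold upward and 6 downward. At 12 h 22 were measured, with a median of -0.21, and 6 were higher and 5 lower. All genes had medians of -0.11 and -0.14, with 18.2% and 24.4% higher and 31.3% and 33.1% lower. Nlrp6, an inflammasome gene, stood at 0.44 and 2.49 on 1 spot and Taldo1, an enzyme of the pentose phosphate pathway, at 1.19 and 1.56 on 5 spots. Within 5 genes of Irf9 on chromosome 14, the proteasome activator genes Psme1 and Psme2, which interferon gamma induces, stood at 0.99 and 0.55 at 6 h and at 1.24 and 0.83 at 12 h. These 4 neighbours were picked after their values were seen. Of the proteasome subunits on the antiviral list, Psmb8 stood at -0.30 and 0.02 on 8 spots. Psmb9 stood at 0.87 (probe SD 1.95) and -0.30 (probe SD 0.46), and Psmb10 at 0.17 and 1.57 on 1 spot. Over the neighbours of all members, 41 were measured at 6 h, with 4 higher and 11 lower. At 12 h 43 were measured, with 15 higher and 13 lower.

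**Figure D4:**
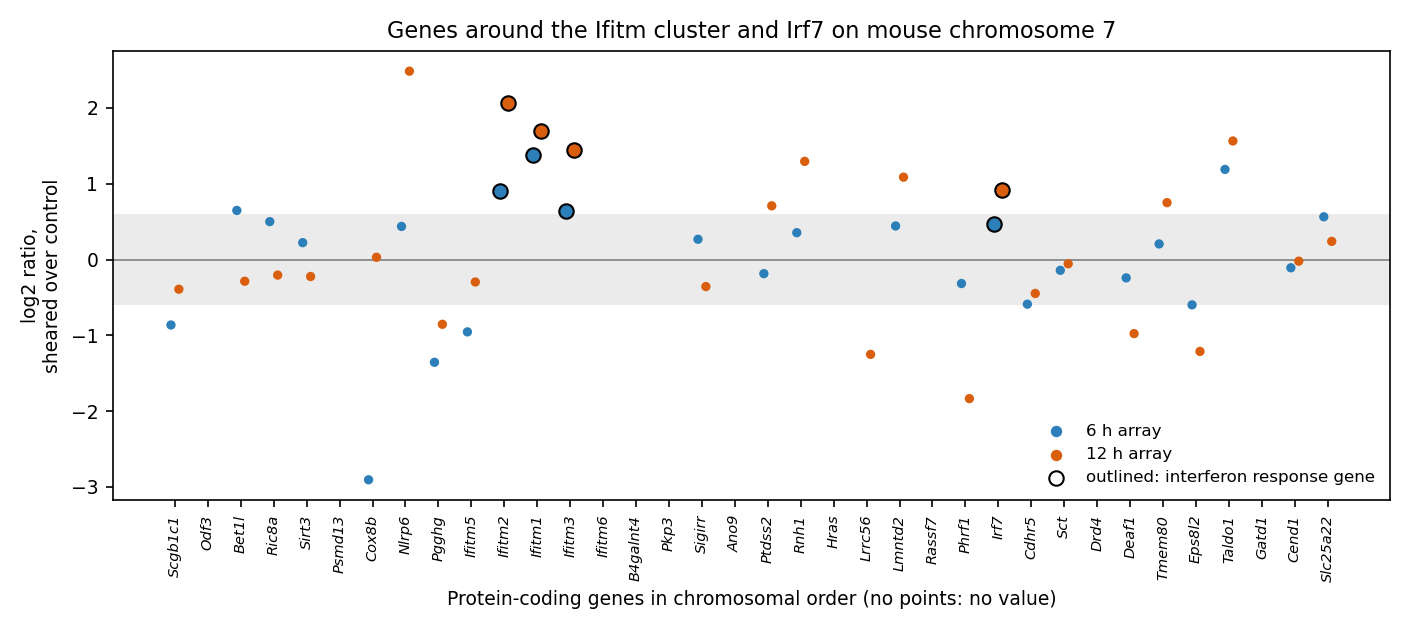
Log2 ratio of sheared over control (y axis) of the protein-coding genes around the Ifitm cluster and Irf7, in their order on chromosome 7 (x axis, not to scale), at 6 h in blue and 12 h in orange; outlined points are members, and genes with no point had no value. The 3 Ifitm genes stand above the grey band of 1.5-fold on both arrays. The 21 other genes with a 6 h value have a median of -0.11, as all genes on the array do.

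Genes with and without an ISRE core had similar medians over the whole array. The 312 genes with a core in a window and a 6 h value had a median of -0.04, against -0.11 for the 8044 without, and 21.5% against 18.2% were at least 1.5-fold higher. At 12 h the medians were -0.13 for 327 genes and -0.13 for 8341, and 26.9% against 24.9% were higher. Of the measured members, B2m, Ifitm2 and Ifitm3, which hold a core, and Ifitm1, which does not, read high on both arrays, and Stat2, which holds a core, did not.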

How the data were processed

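The deposited table holds a log2 ratio per spot for 2 spotted two-colour arrays, 1 per time point, taken as log2 from the range of the values (-8.48 to 5.48). The authors' normalization, background correction and spot filters are not given in the sources used here. Depth is unknown, since no intensity was used, and precision is limited by having 1 array per time. Each array was then centred on the median of its spots, -0.323 at 6 h (39776 measured, 2848 missing) and -0.479 at 12 h (41717 measured, 907 missing). Of 42624 spots, 21701 had exactly 1 symbol in the platform annotation. A gene is the median of these spots. Symbols were looked up by gene ID in RefSeq's table of GRCm38.p6.

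The members and lists were chosen with earlier results of these data known. All members were named, with the highest and lowest gene of each pathway list on each array, all receptors, kinases, STATs and IRFs measured on both arrays, and the 3 genes nearest to each of 2 members. Alternatives were no centring, the mean of spots, genes with 2 or more spots, spots on both arrays, spots with several symbols, one spread for both arrays, print blocks of 900 spots, thresholds of 2-fold and 3-fold and, added later, averaging spots of one cDNA. Scripts (Python 3.11.15, pandas 2.3.3) were tested on simulated data.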

Additional observations from a re-analysis of the deposited data

Results flagged for a closer look

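Irf8 lay on opposite sides of 0 on the 2 arrays, at 3.08 at 6 h and -0.31 at 12 h, a difference of -3.38. Both values rest on 1 spot and the difference was not tested.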

How the results depend on the processing

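Spot intensities were not used, so signal over background is unknown, and single arrays give no error for any median. No paired analysis was possible because each time point has 1 array. Single-gene values were compared with their spot SD (the pooled spot SD for 1 spot), list medians with the pooled spot SD over the square root of the number of genes, and counts with a factor of 1.5. No member value past 1.5-fold changed sign under any alternative run. Leaving out the centring could not do this, since its shifts of 0.323 and 0.479 are smaller than 0.585, and neither could scaling. By these measures 171 recomputed member values moved by less than the SD and 18 by more. Of the list medians 23 moved by more and 125 did not. Of the counts of members and of all pathway genes 21 moved by more and 59 did not. Of the counts of the single pathway lists 85 moved by more and 243 did not.

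Without centring the median of all genes went to -0.437 at 6 h and -0.619 at 12 h, and the members' medians to 0.40 and 1.0. The members then counted 2 higher at 6 h and 1 lower at 12 h. In the same setting the medians at 6 h and 12 h were 0.21 and 0.45 for MHC class I presentation, -0.39 and -0.94 for other STAT and IRF factors, -0.60 and -0.78 for antiviral effectors, 0.10 and -0.054 for receptors and kinases, -0.53 and -0.86 for negative regulators and -0.43 and -0.78 for sensors. All pathway genes outside the members had -0.46 and -0.78, with -0.18 for 12 h minus 6 h, and counted 3 and 8 higher and 31 and 46 lower. Of all genes, 8.35% and 13.4% were then higher and 43.7% and 51.5% lower.

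At 2-fold, 2 members were higher at 6 h and 5 at 12 h, beside 6.20% and 14.5% of all genes. The 69 and 73 pathway genes counted 1 and 8 higher and 9 and 17 lower, and 18.8% and 20.5% of all genes were lower. At 3-fold, 0 members were higher at 6 h and 3 at 12 h, beside 1.30% and 5.74% of all genes. Pathway genes counted 1 and 3 higher and 5 and 8 lower, and 8.65% and 9.74% of all genes were lower.

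With 2 or more spots per gene, pathway genes counted 5 and 6 higher and 7 and 12 lower, with a median of -0.16 at 12 h. Of the 69 pathway genes at 6 h, 34 rest on 1 spot and were left out, as were 38 of the 73 at 12 h. In that setting 20.7% of all genes were higher and 23.6% lower at 6 h, and 29.4% and 27.5% at 12 h. Receptors and kinases had medians of 0.017 and -0.33. The mean of spots gave 0.27 for MHC class I presentation at 12 h. Centring print blocks gave 0.078 for the pathway's 12 h minus 6 h median, and averaging spots of one cDNA gave -0.75 for negative regulators at 12 h.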
